A study of Mus musculus with 6 samples.

Results

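Complexes III and IV of the mitochondrial respiratory chain, the electron carrier cytochrome c that joins them, and ATP synthase were followed through their nuclear-encoded subunit genes. The set took every gene whose symbol in the platform annotation starts with Uqcr, Cox4i, Cox5, Cox6, Cox7, Cox8 or Atp5, and added Cyc1 and Cycs. It held 44 of the 19938 genes with a single-symbol probe set: 9 of complex III, Cycs for cytochrome c, 17 of complex IV and 17 of ATP synthase. For each gene the brightest of its single-symbol probe sets, by the mean of the 6 arrays, was read. Cox7c had no single-symbol probe set and was not a member, since its 3 probe sets carry the symbol Gm12338 as well.

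Complex III takes electrons from ubiquinol and hands them to cytochrome c while moving protons out of the matrix. Complex IV, cytochrome c oxidase, passes them on to oxygen, and ATP synthase lets the protons back through its membrane part Fo to drive ATP formation in its F1 head. Dendritic cells use this chain at rest, and activated ones are known to lean more on glycolysis, which is the process in the title of the study.

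The arrays compared cultured dendritic cells from recipients of marrow of naive donors (naive-donor group, 3 arrays) with those from recipients of marrow of UV-irradiated donors (UV-donor group, 3 arrays). All recipients were female C57BL/6J mice, and each had received 2000000 marrow cells from the congenic CD45.1 strain B6.SJL-Ptprca. UV donors had been given up to 8 kJ/m2 of broadband UV on shaved back skin, and mice were 6 to 10 weeks old when irradiated unless stated otherwise. In both groups marrow was grown for 5 days with GM-CSF and IL-4 at 10 ng/ml each and enriched to above 95% CD11c+ cells. The labels give neither the conditioning of the recipients, nor the share of cells that came from the donor, nor the time from transfer to harvest. Nor do they say whether the 3 preparations of a group came from separate recipients, and p-values therefore measure the spread of preparations alone, some or all of which may be technical.

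The arrays correlated at 0.995 to 0.997 within and 0.995 to 0.996 between groups over all probe sets, and array medians ran from 7.16 to 7.23 (log2 signal). The antigen used for enrichment, Itgax (CD11c), had log2 signals between 13.71 and 13.79 on all arrays. Of 10 listed markers of dendritic cells grown with GM-CSF 9 passed the filter on dim genes. Cd209a was the 1 called (0.59 higher, limma adjusted p = 0.0199), where 0.172% of all tested genes were called, and H2-Ab1 stood at 0.10. UV-donor replicate 1 stood apart, with a first principal component score of 14.1, where UV-donor replicates 2 and 3 scored 4.31 and 3.79 and the naive-donor arrays -10.8 to -2.01. It also had the highest mean of the 11 tested cell division genes. Depth has no meaning for arrays, and their number limits the precision.

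Promoters show what many of these genes have in common beyond their names. NRF1 and the ETS factor GABP are known to bind in front of many respiratory chain genes, and YY1 in front of some. RefSeq's promoter table (GRCm38.p6; 250 bases before to 50 after the start of each gene, the first entry of a gene used) held 33 of the 44 members. The letters searched, on both strands, were GCGCANGCG for NRF1, CCGGAAG for ETS factors and GCCATNTT for YY1. The NRF1 letters were present in 10 of 33 member promoters, or 30.3%, against 8.83% of the 17492 promoters of protein-coding genes. The ETS letters were present in 10 members as well (30.3% against 11.9%), and the YY1 letters in 4 (12.1% against 6.69%). At least 1 of the 3 motifs was found in 19 member promoters (57.6%) and in 23.8% of those of protein-coding genes, at nearly the same median GC content (56.0% and 56.3%). A match is a run of letters and not a measured site, and no test was made.

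Parts of 4 such promoters are printed to show these letters in genes that the results below turn on. Cox6a1 is the general partner of the isoform with the largest difference, Uqcrh and Atp5e are the higher-valued members of smallest p, and Cycs is the single gene of somatic cytochrome c. Each run is the 250 bases before the start site, 5′ to 3′ on the strand of the gene, with matches to the 3 motifs in capitals, and none of these 4 genes had a match in the 50 bases that follow.
Cox6a1 (chr5:115348959-115349208, minus strand): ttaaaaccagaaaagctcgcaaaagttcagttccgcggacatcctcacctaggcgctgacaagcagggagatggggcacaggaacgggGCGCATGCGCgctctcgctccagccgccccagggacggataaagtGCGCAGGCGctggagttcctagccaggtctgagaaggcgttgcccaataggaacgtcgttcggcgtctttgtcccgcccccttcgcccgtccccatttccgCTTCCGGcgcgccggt
Uqcrh (chr4:116075071-116075320, minus strand): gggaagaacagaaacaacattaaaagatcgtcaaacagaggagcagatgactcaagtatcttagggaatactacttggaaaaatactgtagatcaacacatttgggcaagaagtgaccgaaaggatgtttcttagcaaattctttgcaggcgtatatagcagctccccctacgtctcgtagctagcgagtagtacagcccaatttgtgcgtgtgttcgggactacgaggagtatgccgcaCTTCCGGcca
Atp5e (chr2:174464102-174464351, minus strand): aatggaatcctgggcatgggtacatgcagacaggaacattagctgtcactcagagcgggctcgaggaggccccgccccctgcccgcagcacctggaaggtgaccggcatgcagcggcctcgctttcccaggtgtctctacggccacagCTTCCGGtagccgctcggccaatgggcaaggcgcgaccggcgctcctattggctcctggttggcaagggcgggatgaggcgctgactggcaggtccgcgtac
Cycs (chr6:50566570-50566819, minus strand): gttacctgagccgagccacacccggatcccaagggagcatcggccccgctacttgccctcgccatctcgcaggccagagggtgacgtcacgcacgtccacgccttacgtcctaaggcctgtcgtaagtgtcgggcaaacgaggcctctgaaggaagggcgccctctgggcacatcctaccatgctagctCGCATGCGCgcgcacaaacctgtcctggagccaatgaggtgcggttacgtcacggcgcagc
Cox6a1 carried 3 NRF1 matches, of which a pair overlap, and 1 ETS match, while Uqcrh and Atp5e carried 1 ETS match each and Cycs 1 NRF1 match. The muscle-type isoforms with an entry, Cox7a1 and Cox8b, and the testis-type isoforms with one, Cox6b2 and Cox7b2, had none of the 3 motifs in the window. So had general subunits such as Cox5a, Cox5b and Cox7a2.

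No subunit gene passed the test between the groups. Of the 44 members 43 passed the filter on dim genes (mean at or above the 30th percentile of all genes, a log2 signal of 6.58), and 0 were called at an adjusted p under 0.05 (limma with Benjamini-Hochberg adjustment over all 13956 tested genes). Over all tested genes the same rule called 24, or 0.172%, a count that single arrays move (1 without naive-donor replicate 1, UV-donor replicate 2 or UV-donor replicate 3, and 3 without naive-donor replicate 3). The smallest adjusted p of a member was 0.181, for Cox6a2. At an unadjusted p under 0.05, 3 members were higher in the UV-donor group (6.98% of the tested members, against 9.6% of all tested genes) and 1 was lower (2.33%, against 5.49%). These counts moved with single arrays and so did their place against the background. The count of 3 higher members became 1 without naive-donor replicate 1 or replicate 2 (2.33%, against 6.81% and 9.49% of all tested genes) and 5 without naive-donor replicate 3 (11.6%, against 7.79%). The count of 1 lower member became 2 without naive-donor replicate 2 or UV-donor replicate 1 (4.65%, against 4.63% and 4.92%).

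Differences between the groups, always UV-donor minus naive-donor on the log2 scale, were small. The median over the 43 tested members was 0.0079, beside 0.0016 over all tested genes, with 24 members higher and 19 lower in value. With array medians centred the split was 34 to 9, and the median of all tested genes moved to 0.036. The groups did not overlap for 6 members with higher values (14.0%, against 12.4% of all tested genes) and 5 with lower values (11.6%, against 9.37%), which is close to the background. The spread within groups was narrow: the median SD of a member was 0.043, against 0.073 over all tested genes. For 39 of 43 members the 95% interval of the difference lay within 0.3 on the log2 scale, or 1.23-fold, in either direction. The 4 whose intervals reached further were Cox6a2, Uqcr10, Atp5e and Atp5mpl.

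**Figure D1:**
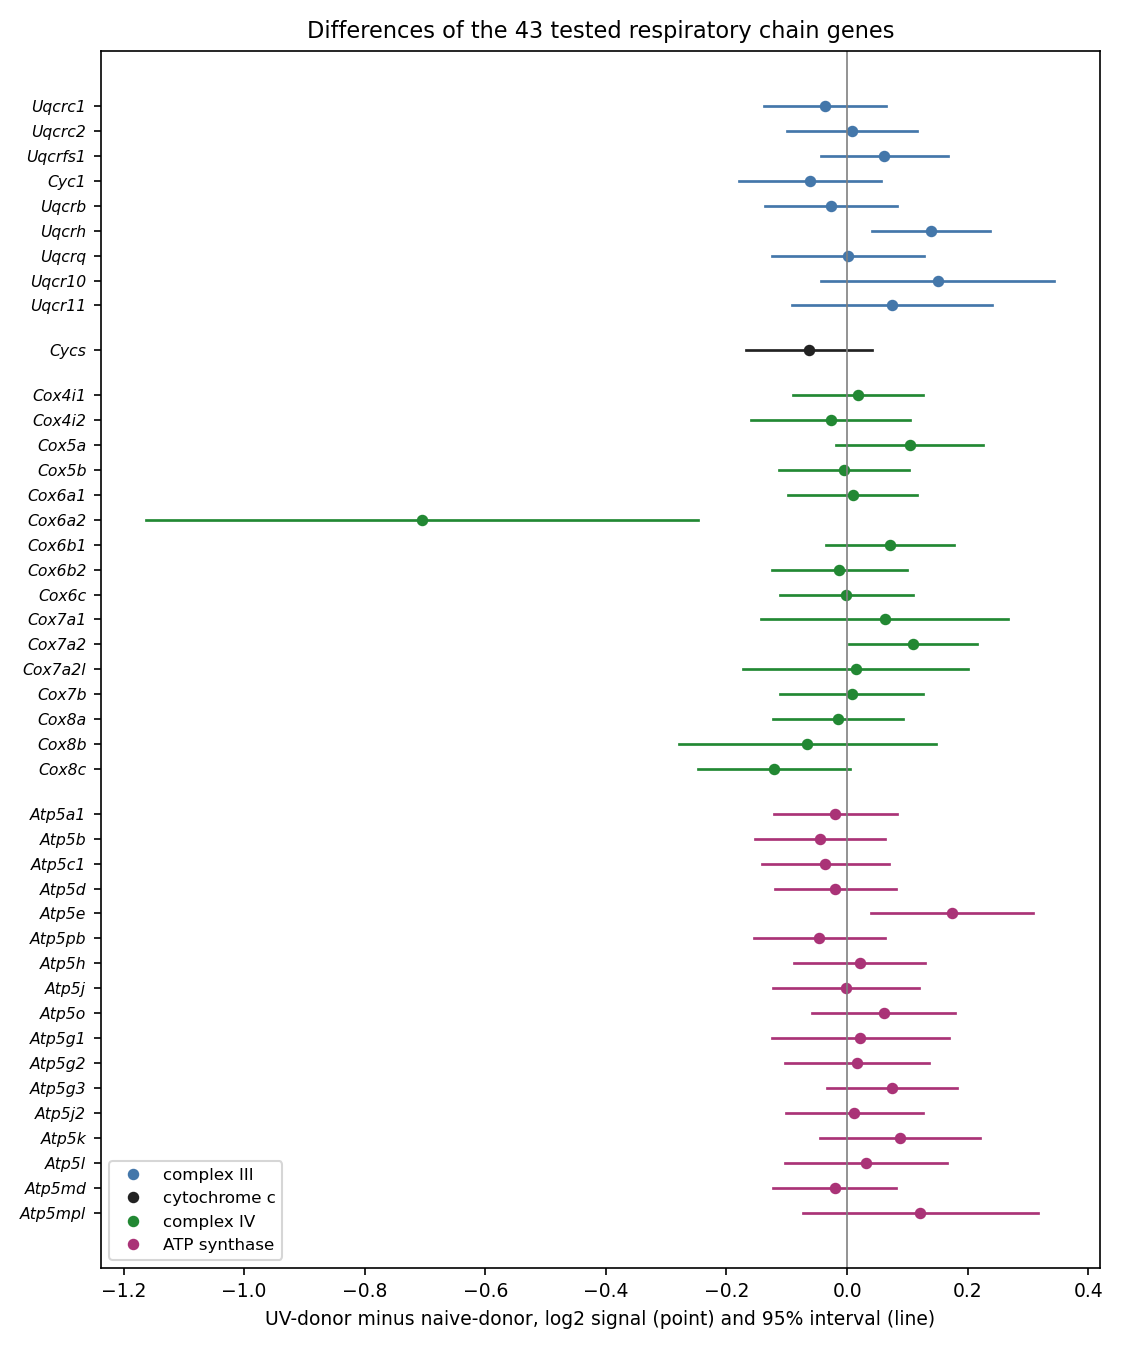
Difference between UV-donor and naive-donor arrays in log2 signal (x axis; point, with the 95% interval of limma as a line) for each of the 43 tested members, grouped by complex. The intervals lie close to 0 for all but Cox6a2, at -0.70, and those of Uqcrh, Atp5e, Cox7a2 and Cox6a2 leave out 0 before adjustment.

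Cox6a2 had by far the largest difference among the members. It encodes the heart-type isoform of subunit VIa of complex IV, which is known from heart and skeletal muscle and, among blood cells, from plasmacytoid dendritic cells. Its log2 signal was 9.25, 8.92 and 9.03 on the naive-donor arrays and 7.86, 8.48 and 8.74 on the UV-donor arrays, replicates 1 to 3. All UV-donor arrays were lower than all naive-donor arrays, and UV-donor replicate 1 was lowest. The means were 9.07 ± 0.17 and 8.36 ± 0.45 (SD, n = 3 each), that is, -0.70 on the log2 scale or a ratio of 0.614 (limma unadjusted p = 0.0074, adjusted p = 0.181), with a 95% interval from -1.16 to -0.25. Without UV-donor replicate 1 the difference was -0.45 (limma adjusted p = 0.188). In such bulk preparations, fewer cells of a type and less RNA per cell cannot be told apart.

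Its general counterpart Cox6a1, the liver-type isoform that most tissues use, had nearly the same values in both groups. The signals were 12.30, 12.34 and 12.38 in the naive-donor group and 12.32, 12.34 and 12.38 in the UV-donor group, so the groups overlapped fully. The difference was 0.0097 (95% interval -0.097 to 0.12, limma adjusted p = 0.942).

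**Figure D2:**
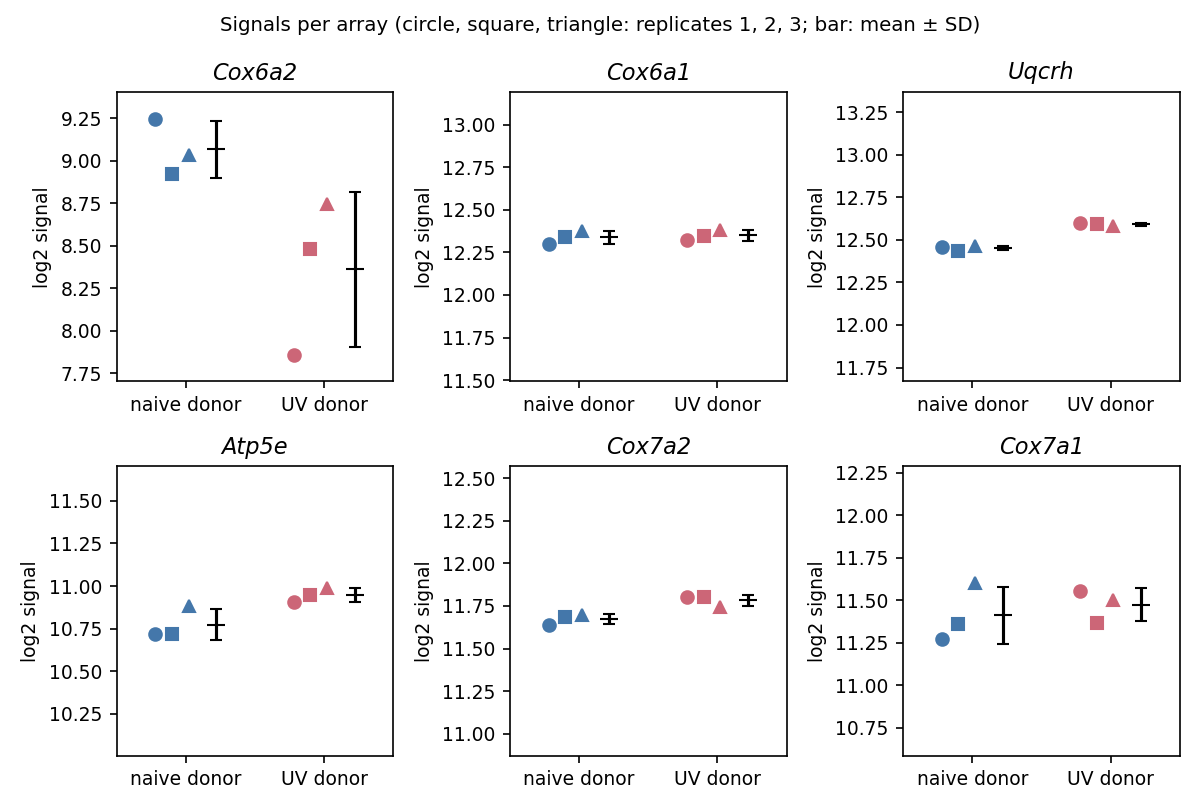
Log2 signal (y axis, of the same span in every panel, placed around the values of the gene) of Cox6a2, Cox6a1, Uqcrh, Atp5e, Cox7a2 and Cox7a1 on each array, with the mean and SD of each group of 3 as a bar. Cox6a2 runs from 7.86 to 9.25, while the other 5 genes stay within a narrow band.

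Marker lists of the cells and tissues that Cox6a2 is known from, and of cell division, were read beside it. Of 11 tested plasmacytoid markers 6 were higher and 5 lower in value, with 0 called. At unadjusted limma p-values under 0.05, 3 were higher and 1 lower (9.6% and 5.49% of all tested genes). The groups did not overlap for 5 markers with higher and 2 with lower values (12.4% and 9.37% of all tested genes). The mean log2 signal of the 11 markers ran from 8.03 to 8.12 on the naive-donor arrays and from 8.03 to 8.23 on the UV-donor arrays. Among them Spib and Tcf4, transcription factors of plasmacytoid cells, differed by 0.31 and 0.28, and Atp1b1, a sodium pump subunit, by -0.27. Siglech, a lectin that defines these cells, differed by -0.091, with signals of 6.73 to 6.92 that lie just above the dim limit. The defining receptor Ccr9 was below that limit. UV-donor replicate 1, lowest for Cox6a2, had the highest mean of the plasmacytoid list, but its markers were divided. On that array Siglech (6.73) and Atp1b1 (8.30) had their lowest signal of the 6 arrays. Tcf4 (10.56), Upb1 (7.64) and Blnk (10.30) had their highest there. Of 9 tested muscle genes 8 were lower in value with 0 called. At unadjusted limma p-values under 0.05, 1 was lower and 0 higher (5.49% and 9.6% of all tested genes). The groups did not overlap for 3 muscle genes with lower and 0 with higher values (9.37% and 12.4% of all tested genes). The list mean was 7.69 to 7.77 on the naive-donor arrays and 7.62 to 7.69 on the UV-donor arrays. These ranges did not overlap, with the nearest arrays at 7.694 and 7.691. Myh6, a myosin of heart muscle, differed by -0.21 (limma adjusted p = 0.231) and Actc1, cardiac actin, by -0.14, and 4 of 13 listed muscle genes were dim. None of the 5 brown fat markers passed the dim filter.

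The cell division list varied with Cox6a2. Its 11 tested genes were all higher in value on the UV-donor arrays, with no overlap and 0 called. Over all tested genes 12.4% were higher without overlap. All 11 were higher at an unadjusted limma p under 0.05, as were 9.6% of all tested genes. The mitotic genes Aurka and Prc1 differed by 0.53 and 0.62 (limma adjusted p = 0.114 and 0.117). Relative to the naive-donor mean the list stood at -0.15, 0.21 and -0.051 on naive-donor replicates 1 to 3 and at 0.81, 0.40 and 0.36 on UV-donor replicates 1 to 3. The 6 arrays had exactly the reverse order for Cox6a2. That order was shared by 60 of the 13956 tested genes, of which Cox6a2 was the 1 member, and it was noticed after the values were seen.

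Markers of other cells also differed between the preparations. Of 10 tested neutrophil markers 8 were higher in value and 2 were called higher, as were 0.172% of all tested genes. They were Ltf, which encodes lactoferrin, by 0.54 and S100a8, a calcium-binding protein, by 0.77 (limma adjusted p = 0.0199 and 0.0365). At unadjusted limma p-values under 0.05, 7 of the 10 were higher and 0 lower (9.6% and 5.49% of all tested genes). The groups did not overlap for 7 with higher and 0 with lower values (12.4% and 9.37% of all tested genes). The mean signal of the 10 markers was 8.25 to 8.46 in the naive-donor group and 8.68 to 8.83 in the UV-donor group. UV-donor replicate 1 was the lowest of the 3 UV-donor arrays. Of 7 tested macrophage markers 5 were higher in value and 1 was called. This was C1qb, a chain of complement C1q, at 0.63 (limma adjusted p = 0.0199). Adgre1, a surface receptor of macrophages, stood at 0.51 (limma adjusted p = 0.0627). At unadjusted limma p-values under 0.05, 4 of the 7 were higher and 1 lower (9.6% and 5.49% of all tested genes). The groups did not overlap for 4 with higher and 1 with lower values (12.4% and 9.37% of all tested genes). List means were 9.17 to 9.23 in the naive-donor and 9.25 to 9.40 in the UV-donor group. Cd5l, a protein secreted by macrophages, had signals of 10.94, 10.81 and 10.99 in the naive-donor group and 9.52, 10.03 and 10.21 in the UV-donor group, so UV-donor replicate 1 was lowest, as for Cox6a2 (difference -0.996, limma adjusted p = 0.0627). The 8 lists of other blood, progenitor and stromal cells had 0 limma calls among 21 tested genes. At unadjusted limma p-values under 0.05, 7 of the 21 were higher and 1 was lower. Over all tested genes 9.6% were higher and 5.49% lower at that limit. The part of cell division, or of other cells, in the Cox6a2 difference was not tested.

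**Figure D3:**
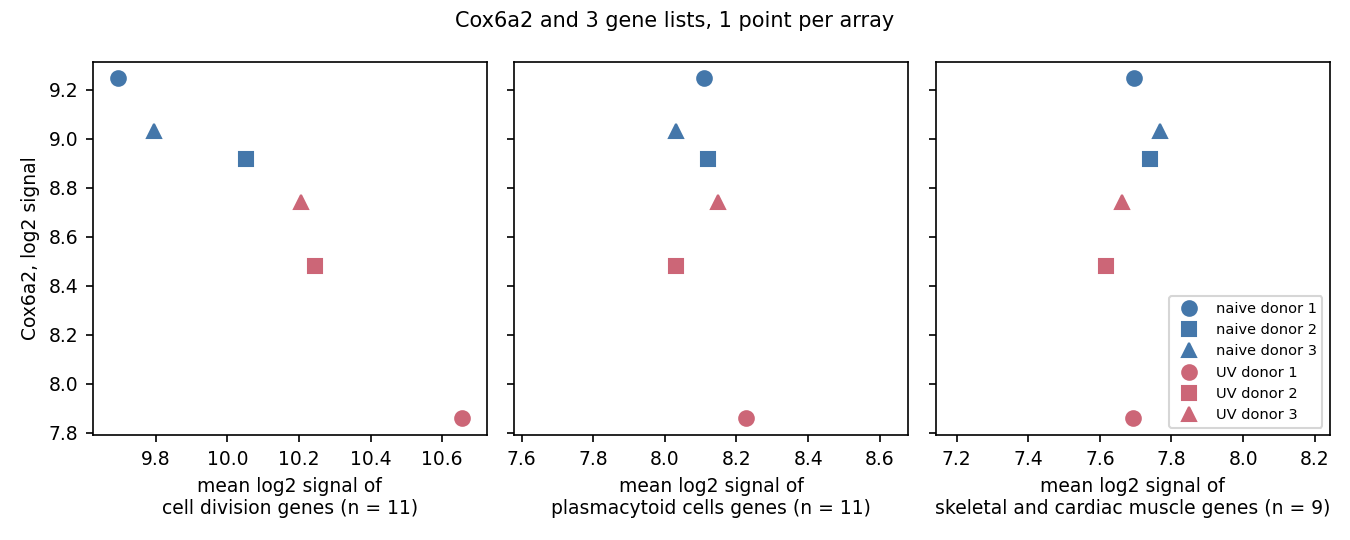
Log2 signal of Cox6a2 (y axis) against the mean log2 signal of 11 cell division genes, 11 plasmacytoid markers and 9 muscle genes (x axes, equal span), 1 point per array. Cox6a2 stands at 9.25 on the array with the lowest cell division mean and at 7.86 on the array with the highest. The muscle means are lower on every UV-donor array, by a narrow margin, without following the order of Cox6a2 array by array. The plasmacytoid means of the groups overlap.

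The other tissue isoforms of complex IV gave no difference of that size. Cox7a1, the heart-type isoform of subunit VIIa that is also found in brown fat, had signals of 11.27, 11.36 and 11.60 in the naive-donor group and 11.55, 11.37 and 11.50 in the UV-donor group. The groups overlapped, and the difference was 0.062 (95% interval -0.14 to 0.27). Cox4i2, the isoform of lung and of hypoxia, had signals of 8.16, 8.04 and 7.99 against 8.02, 8.01 and 8.08 (difference -0.027, 95% interval -0.16 to 0.10). Cox8b, another heart-type isoform, lay just above the dim limit, at 6.66, 6.67 and 6.85 against 6.68, 6.48 and 6.82 (difference -0.066).

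Testis-type isoforms were near the dim limit as well. Cox8c had signals of 7.39, 7.25 and 7.28 in the naive-donor group and 7.24, 7.15 and 7.18 in the UV-donor group. These groups did not overlap, and the UV-donor mean was set off by -0.12 (limma adjusted p = 0.345, 95% interval -0.25 to 0.0047). For Cox6b2 the signals were 7.04, 7.07 and 7.13 against 7.04, 7.05 and 7.12 (difference -0.013). Cox7b2 was the member that failed the dim filter, at 4.96, 5.13 and 5.08 against 4.87, 5.04 and 5.01, and with no filter it differed by -0.081 (limma adjusted p = 0.632). Of the 6 tested tissue isoforms, then, 5 were lower and 1 higher in value, with 0 called.

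General subunits of complex IV were split 6 higher to 3 lower in value. Cox7a2, the liver-type partner of Cox7a1, had the smallest p among them. Its signals were 11.64, 11.69 and 11.70 in the naive-donor group and 11.80, 11.80 and 11.74 in the UV-donor group, so that all UV-donor arrays were higher, by 0.11 on average (95% interval 0.0037 to 0.22, limma adjusted p = 0.314). Cox5a, a subunit on the matrix side, had signals of 11.60, 11.70 and 11.64 against 11.71, 11.82 and 11.72 (difference 0.10, limma adjusted p = 0.393). Cox6b1, which faces the intermembrane space, had signals of 12.99, 12.99 and 13.04 against 13.12, 13.06 and 13.05 (difference 0.071, limma adjusted p = 0.502).

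The remaining subunits of complex IV had overlapping groups. Cox4i1, the largest nuclear-encoded subunit, had signals of 12.05, 12.08 and 12.05 against 12.03, 12.12 and 12.09 (difference 0.018). Cox6c stood at 13.74, 13.75 and 13.74 against 13.77, 13.78 and 13.68 (difference -0.0013). Cox7b, at 13.38, 13.46 and 13.52 against 13.49, 13.44 and 13.45, differed by 0.0074. Cox8a, the general partner of Cox8b and Cox8c, differed by -0.015, with signals of 13.23, 13.20 and 13.29 against 13.22, 13.21 and 13.23. Cox5b differed by -0.0046. Cox7a2l, a relative of Cox7a2 known as a factor that joins complexes III and IV into supercomplexes, had signals of 11.11, 10.88 and 11.07 against 10.89, 11.11 and 11.11 and differed by 0.014 (95% interval -0.17 to 0.20).

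Ratios within an array asked whether isoforms of a subunit changed unequally. The log2 ratio of Cox6a2 to Cox6a1 was -3.06, -3.42 and -3.34 on the naive-donor arrays and -4.46, -3.86 and -3.64 on the UV-donor arrays. The ratio was lower on every UV-donor array, by -0.71 on average, with an exact permutation p of 0.100, two-sided, which is the smallest that 3 arrays against 3 can give (0.733 adjusted over 11 isoform pairs). The other 10 pairs had overlapping groups and differences between -0.11 and 0.059, with exact permutation p-values from 0.200 to 1. Of the 11 ratios, each of the first to the second gene as the plot of ratios names them, 9 were lower and 2 higher in value. These are not independent counts, since Cox7a2, Cox8a and the Atp5g genes each enter more than 1 ratio. The size of a ratio compares different probe sets and carries no meaning of its own, so only its change was read.

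**Figure D4:**
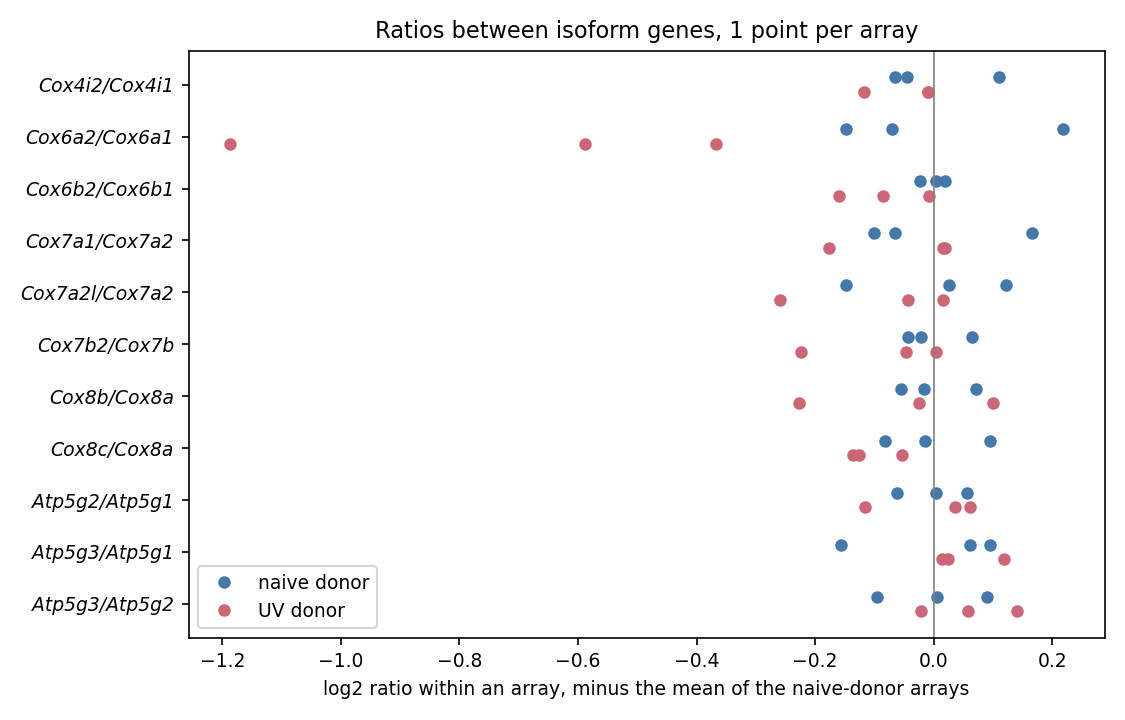
Log2 ratio of isoform genes within an array, minus its mean over the 3 naive-donor arrays (x axis), for 11 pairs, 1 point per array. For Cox6a2 over Cox6a1 the 3 UV-donor arrays lie apart on the left, with a mean of -0.71, and the groups overlap for the other 10 pairs.

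In complex III 6 members were higher and 3 lower in value (median 0.0079). The interval left out 0 for 1 of these 9, with a higher value, which equals an unadjusted limma p under 0.05. Over all tested genes 9.6% were higher at that limit. Uqcrh, the hinge protein that helps cytochrome c dock, had signals of 12.46, 12.44 and 12.46 in the naive-donor group and 12.60, 12.59 and 12.58 in the UV-donor group. Each UV-donor array was higher than each naive-donor array by more than the spread within either group. The difference was 0.14 (95% interval 0.041 to 0.24, limma unadjusted p = 0.0113, adjusted p = 0.200). Uqcr10, a small membrane subunit, had signals of 10.29, 10.34 and 10.56 against 10.63, 10.43 and 10.59, which overlapped (difference 0.15, limma adjusted p = 0.429).

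The core and redox subunits of complex III were split 2 to 2. Uqcrfs1, the Rieske iron-sulfur protein, differed by 0.062, and Cyc1, cytochrome c1, by -0.062. The core proteins Uqcrc1 and Uqcrc2 differed by -0.036 and 0.0079. Of the 5 small subunits 4 were higher in value, namely Uqcrh, Uqcr10, Uqcr11 (0.075) and Uqcrq (0.0016), while Uqcrb differed by -0.027. Limma adjusted p-values in complex III ran from 0.200 to 0.992.

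Cycs, the somatic cytochrome c, had signals of 13.26, 13.21 and 13.29 in the naive-donor group and 13.21, 13.18 and 13.18 in the UV-donor group. All UV-donor arrays were below all naive-donor arrays by a small margin, the difference being -0.064 (limma adjusted p = 0.538, 95% interval -0.17 to 0.040).

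In ATP synthase 10 members were higher and 7 lower in value, and the limma adjusted p-values lay between 0.230 and 0.992. The catalytic F1 head is built of alpha, beta, gamma, delta and epsilon subunits. Atp5a1, Atp5b, Atp5c1 and Atp5d, which encode the first 4 of these, differed by -0.020, -0.045, -0.036 and -0.020. Atp5e, the epsilon subunit, differed the other way. Its signals were 10.72, 10.72 and 10.88 in the naive-donor group and 10.91, 10.95 and 10.99 in the UV-donor group. The groups did not overlap, and the difference was 0.17, or 1.13-fold (95% interval 0.039 to 0.31, limma unadjusted p = 0.0173, adjusted p = 0.230).

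The peripheral stalk, which holds the head still against the rotor, was split 2 to 2. Atp5pb (subunit b) differed by -0.046, Atp5h (subunit d) by 0.021, Atp5j (coupling factor 6) by -0.0017 and Atp5o, the oligomycin sensitivity protein, by 0.061. Of the membrane subunits e, f and g, Atp5k differed by 0.088, with signals of 9.53, 9.52 and 9.69 against 9.67, 9.64 and 9.70, while Atp5j2 differed by 0.012 and Atp5l by 0.031. The small associated subunits Atp5md and Atp5mpl differed by -0.021 and 0.12.

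The rotating c ring is made from 3 genes that encode the same mature protein. Atp5g1 had signals of 12.93, 12.95 and 13.12 against 13.08, 12.96 and 13.04, and Atp5g2 had 13.16, 13.14 and 13.23 against 13.14, 13.20 and 13.25. Both overlapped between the groups, with differences of 0.022 and 0.016. Atp5g3 had signals of 12.38, 12.44 and 12.35 against 12.49, 12.47 and 12.44, with no overlap and 0.075 between the means (limma adjusted p = 0.480, 95% interval -0.033 to 0.18). The ratios among the 3 genes had overlapping groups.

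Several genes had more than 1 probe set. There were 66 single-symbol probe sets for the 44 members, and 13 members had more than 1. For 5 of these 13 the probe sets differed in the sign of the difference: Cox5b, Cox7a2l, Cox7b, Atp5h and Atp5md. All their differences lay between -0.034 and 0.021. Probe sets of like sign but unlike size were seen for Cycs, whose 3 ranged from -0.18 to -0.063, and for Uqcr11, whose pair gave 0.075 and 0.19. The 6 probe sets of Atp5l ranged from 0.031 to 0.070, and the 3 of Atp5g2 from 0.016 to 0.020. Such families have processed pseudogene copies, and whether probe sets share sequence with them was not examined. Uqcrh, Atp5e, Cox7a2 and the Cox6a pair had 1 probe set each.

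Genes that assemble or accompany these complexes also had 0 calls. Of 20 tested complex IV assembly factors 9 were higher and 11 lower in value (median -0.0095). At an unadjusted limma p under 0.05, 1 was higher and 1 lower (9.6% and 5.49% of all tested genes). Cox17, the copper chaperone that feeds complex IV, had signals of 8.75, 8.78 and 8.77 in the naive-donor group and 8.96, 9.03 and 9.06 in the UV-donor group. Its groups stood apart by more than their spread, and the means lay 0.25 apart (limma adjusted p = 0.106, 95% interval 0.14 to 0.36). Cox11, another factor for copper insertion, went the other way, at 10.03, 9.96 and 9.90 against 9.85, 9.80 and 9.78 (difference -0.15, limma adjusted p = 0.230). Cmc2 differed by 0.15.

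Complex III assembly factors were split 3 to 3, with Bcs1l, which inserts the Rieske protein, at 0.10, Uqcc1 at 0.075 and Ttc19 at -0.068. Among 5 tested genes associated with complex IV, 4 were higher in value, among them Higd2a (0.099) and Ndufa4 (0.097), while Ndufa4l2 differed by -0.046. Of 4 tested genes for assembly or inhibition of ATP synthase 3 were higher, with the assembly factors Atpaf2 at 0.10 and Atpaf1 at -0.054 and the inhibitor Atpif1 at 0.030. Carriers of ATP, phosphate and metabolites were lower in 4 of 6 tested cases, with Vdac3 at -0.13, the phosphate carrier Slc25a3 at -0.046 and the ADP/ATP exchanger Slc25a5 at -0.018.

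Complex II, the entry from succinate, was lower in value for 5 of 6 genes, with Sdhd at -0.070, Sdhaf1 at -0.066 and Sdhaf2 at 0.027. Of the mitochondrial genome only COX2, a core subunit of complex IV, was read, by the symbol of its probe set. Where in the genome that probe set lies was not examined. The COX2 signals of 13.71, 13.80 and 13.79 against 13.69, 13.71 and 13.70 overlapped (difference -0.065, limma adjusted p = 0.543). The 5 other listed protein genes of the mitochondrial genome for complexes III, IV and ATP synthase were not analysed here.

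Regulators of respiratory genes and mitochondrial RNA were higher in value for 11 of 18 tested genes (median 0.033). An unadjusted limma p under 0.05 was reached by 3 of the 18, each higher in value. Over all tested genes 9.6% were higher at that limit. The 3 were Myc, a growth regulator (0.27, limma adjusted p = 0.157), Nrf1 (0.18, limma adjusted p = 0.298) and Tfam (0.16, limma adjusted p = 0.316). Nrf1 encodes the factor whose letters were searched above, and Tfam packages mitochondrial DNA. Nrf1 signals were 8.85, 8.93 and 8.73 in the naive-donor group and 9.13, 8.93 and 8.98 in the UV-donor group, with UV-donor replicate 1 highest and nearly equal values for the nearest pair. Ppargc1a, the coactivator that drives mitochondrial growth in muscle and brown fat, was below the dim limit, and its relative Ppargc1b differed by -0.037.

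**Figure D5:**
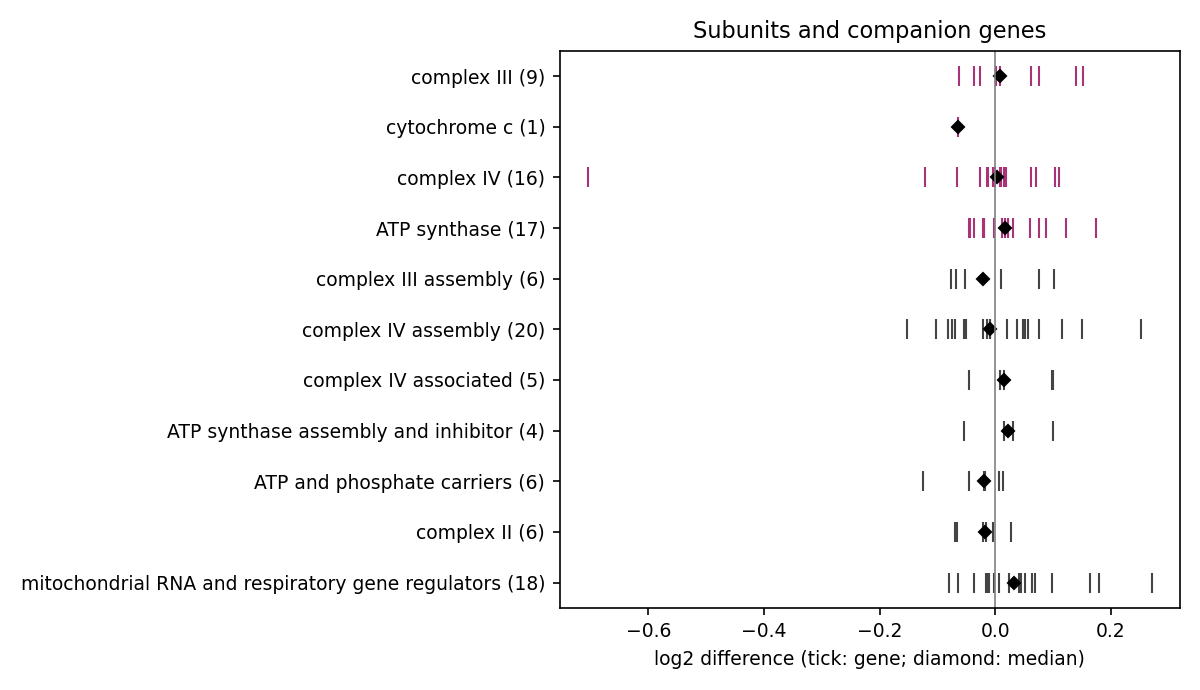
Log2 difference (x axis, UV-donor minus naive-donor) of each tested gene (tick) and the median (diamond) for the complexes and their companion lists, with the number of tested genes in brackets. The medians drawn lie between -0.064, for the single gene of cytochrome c, and 0.033, for the regulators, and the mitochondrial genome, with COX2 alone at -0.065, is not drawn.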

How the data were processed

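Gene expression was measured in 6 CD11c-enriched preparations, 3 per group, on whole-transcript arrays. Judged by their range, the deposited values are log2 signals. RMA and the packages oligo and limma are named, without versions, in the submitters' processing notes. Summary level, scan dates and genome build are not given in the sources used here, and no batch was examined. Values were used as deposited.

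Symbols came from the platform annotation: of 35556 probe sets 21789 had 1 symbol, 1621 several and 12146 were not listed. The probe set of highest mean stood for each gene. Genes below the 30th percentile were dim and not tested. The group test was that of limma 3.58.1 (R 4.3.3; lmFit, eBayes, two-sided) over 13956 genes. It was tested on 10 simulated sets with independent noise and 200 changed genes. At an adjusted p under 0.05 it recovered 62.6% of changes of 0.3 and 98.7% of changes of 0.6 (log2). Other numbers of changed genes were not simulated. Isoform ratios were compared with an exact permutation test. Figures used matplotlib 3.10.9.

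Members, isoform pairs and gene lists were chosen with earlier results of these data known. Values per array are given for isoform families and the 10 members of smallest p, companion lists by their 3 genes of smallest p and marker lists by 2. Values given beyond that were added after they were seen. They are Cycs, COX2 and Cd5l per array, Itgax, Tcf4, Siglech, Upb1, Blnk, Ccr9, Ppargc1a, Ppargc1b and the neighbours of Cox6a2. Alternatives were other filters, normalizations, priors, weights, probe set rules, a replicate block and leaving out each array.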

Additional observations from a re-analysis of the deposited data

How the results depend on the processing

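No member was called under any of the 16 alternatives of the gene fit, nor at an adjusted p under 0.10. The median difference of the members ran from -0.0063 to 0.042. With single arrays left out, members higher at an unadjusted p under 0.05 numbered 1 to 5 (2.33% to 11.6%, against 6.81% to 9.49% of all tested genes). Those lower numbered 1 to 2 (2.33% to 4.65%, against 3.66% to 5.25%). The count of lower members was 2 with the replicate block and 2 with array weights (4.65% each, against 4.77% and 6.79% of all tested genes). All tested genes called numbered 0 with the replicate block (1286 and 666 genes had higher and lower values at unadjusted limma p-values under 0.05), 43 with array medians centred, 45 with an intensity trend and robust prior, 43 with array weights, 0 with all probe sets (1801 and 1708), 70 at an adjusted p under 0.10 and 1 to 32 with single arrays left out. With all probe sets the adjustment ran over 35556 probe sets. The causes of these shifts in the count were not tested. Cox6a2 kept a lower value in all alternatives (-0.89 to -0.45, limma adjusted p from 0.154 to 0.458), and Uqcrh (0.13 to 0.17) and Atp5e (0.15 to 0.23) kept higher ones. Of the 22 tested members of the isoform families and of smallest p, Cycs not among them, 12 changed sign under some alternative. The Cox6a2 to Cox6a1 ratio ran from -0.89 to -0.48. Deviations of same-numbered arrays from their group means correlated at -0.13, -0.22 and 0.15, and 1 of 6 arrays correlated best with its own number. With 3 arrays a group these values cannot settle whether same-numbered arrays were paired, and the labels do not say. Signals of Cox6b2, Cox8b and Cox8c lie close to the dim limit.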

Other observations

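Cox6a2 lies at the end of a run of integrin genes in the RefSeq gene order. Next to it on one side are Itgad, Itgax and Itgam, which encode the alpha chains of CD11d, CD11c and CD11b. Their values differed little between the groups: Itgad differed by 0.058 (95% interval -0.088 to 0.20), Itgax by -0.044 (-0.14 to 0.057) and Itgam by -0.058 (-0.16 to 0.047), with limma adjusted p-values from 0.577 to 0.705. On the other side 9130023H24Rik differed by -0.055, Armc5 by -0.034, Tgfb1i1 by -0.079 and Slc5a2 by -0.11. Trim72, beyond the integrins, differed by -0.086. Slc5a2 and Trim72 were lower without overlap (limma adjusted p = 0.374 and 0.462), as were 9.37% of all tested genes.

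Members with brighter and dimmer probe sets differed slightly in balance. Of the 21 tested members above the median member signal of 12.4, 9 were higher in value on the UV-donor arrays (median difference -0.0017), and of the 22 at or below it, 15 were (median 0.025). Over all tested genes 257 of 653 above the same signal had higher values (median -0.015) and 6802 of 13303 at or below it (median 0.0029). The split was chosen after the values were seen.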
